A study of Rattus norvegicus with 16 samples.

Results

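The genes described here are 10 islet genes of the rat pancreas, chosen by symbol out of 45777 rows per table with earlier results of these data known. They are the hormone genes Ins1, Ins2, Gcg, Sst, Ppy and Iapp, the prohormone convertase genes Pcsk1 and Pcsk2, and the transcription factor genes Pdx1 and Nkx6-1. All 10 were found. The sequenced RNA came from 3 organs, the pancreas, the heart and the adrenal gland. All rats were wildtype Sprague-Dawley males and were instilled through the trachea with vehicle or with benzalkonium chloride (BKC), an antiseptic and preservative. Dosing was 10 instillations every 3 days from 7 weeks of age, and organs were taken on day 31, which was 24 h after the last. Pancreas had 2 vehicle libraries and 2 of rats given 100 µg of BKC per rat and instillation (BKC100). Adrenal gland and heart also had 2 libraries each at 50 µg (BKC50). Both adrenal glands of a rat were pooled, the heart piece is labelled left ventricular, and the labels do not say which part of the pancreas was taken.

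Islets of Langerhans are small endocrine clusters in a pancreas made up mostly of enzyme-secreting acinar cells. Beta cells make insulin and amylin, alpha cells glucagon, delta cells somatostatin and PP cells pancreatic polypeptide. Each hormone is cut out of a longer precursor by convertases in secretory granules. Rats, unlike humans, carry a pair of insulin genes. In the rat, islets rich in PP cells and islets rich in alpha cells lie in different regions of the pancreas.

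Expression values were read as FPKM, fragments scaled to transcript length and library size, which allows levels of different genes to be compared. Sequencing depth was unknown, so no counting error can be attached to low values. Summed FPKM ranged from 486061 to 603063 in pancreas. The heart column of BKC100 replicate 2 was identical to the adrenal column of BKC100 replicate 2 in 45777 of 45777 rows and was left out. The remaining BKC100 heart library also stood apart. It held 7906 FPKM of the atrial light chain gene Myl7, against 1.74 to 3.95 in the other 4 hearts, and 41.9 FPKM of the ventricular light chain gene Myl2 against 11670 to 18060. Vehicle pancreas replicate 2 was below vehicle replicate 1 in 79.1% of the 21622 genes above 0 in any pancreas library, and each comparison of pancreas groups below includes it unless stated.

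The upstream sequences of both insulin genes are shown because their RNA levels kept nearly 1 ratio in all pancreas libraries, and those of Gcg and Ppy because their RNA did not follow insulin. Each line gives the 250 bases before the annotated start, 5′ to 3′, from RefSeq on build GRCr8, and the build used for the deposited values is not given in the sources used here. The regions are chr1:261185869-261186118 on the plus strand for Ins1 and chr1:207273806-207274055 on the minus strand for Ins2. They are chr3:67531534-67531783 on the minus strand for Gcg and chr10:87556237-87556486 on the minus strand for Ppy. Capitals mark TAAT on either strand, the core of many homeodomain sites, and GCCATCTG on either strand, which holds an E box of insulin promoters.
Ins1: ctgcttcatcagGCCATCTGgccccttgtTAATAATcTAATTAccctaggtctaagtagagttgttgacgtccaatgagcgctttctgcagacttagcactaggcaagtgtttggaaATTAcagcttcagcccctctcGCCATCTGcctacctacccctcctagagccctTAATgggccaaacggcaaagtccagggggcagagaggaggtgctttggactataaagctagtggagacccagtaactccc
Ins2: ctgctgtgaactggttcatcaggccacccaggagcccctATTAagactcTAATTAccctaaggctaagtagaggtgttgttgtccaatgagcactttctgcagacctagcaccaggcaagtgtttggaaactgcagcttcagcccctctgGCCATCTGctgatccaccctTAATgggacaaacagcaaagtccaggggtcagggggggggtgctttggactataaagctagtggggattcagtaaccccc
Gcg: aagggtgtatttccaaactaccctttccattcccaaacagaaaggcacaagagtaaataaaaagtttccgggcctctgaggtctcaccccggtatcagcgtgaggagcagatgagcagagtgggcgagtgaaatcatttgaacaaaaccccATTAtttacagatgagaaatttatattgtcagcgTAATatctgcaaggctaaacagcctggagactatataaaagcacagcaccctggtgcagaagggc
Ppy: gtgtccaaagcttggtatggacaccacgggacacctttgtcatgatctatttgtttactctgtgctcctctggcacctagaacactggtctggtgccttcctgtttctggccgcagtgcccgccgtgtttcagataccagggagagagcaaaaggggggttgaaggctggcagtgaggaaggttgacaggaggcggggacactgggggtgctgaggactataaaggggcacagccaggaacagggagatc

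Global alignment of the Ins1 and Ins2 stretches gave 208 identical bases in 262 columns, or 79.4%. The same alignment gave 48.2% between Ins1 and Gcg and 52.0% between Ins1 and Ppy. It gave 51.1% between Ins1 and Iapp, although Iapp RNA moved with insulin, and 48.2% between Ins1 and Sst. Ins1 held 6 TAAT matches and 2 GCCATCTG matches, and Ins2 held 4 and 1, counted on both strands and with overlapping matches counted apart. Gcg held 2 TAAT matches and Ppy 0, and neither held GCCATCTG. Iapp held 4 TAAT matches and Sst 5, also without GCCATCTG. A link between these sequences and the RNA levels was not tested. TAAT was present in 57% of 33469 rat promoter stretches of the same length and GCCATCTG in 0.998%. Of the 9 members with a sequence, 6 held TAAT and 2 held GCCATCTG.

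The insulin genes were the most abundant of the 10 in every pancreas library. Ins1, which encodes insulin 1, was at 282 and 36.9 FPKM in vehicle replicates 1 and 2 and at 259 and 164 in BKC100 replicates 1 and 2. Ins2, which encodes insulin 2, was at 181 and 23.5 in vehicle and at 170 and 113 in BKC100. Both genes had their highest and lowest value in the vehicle group, with both BKC100 libraries between. Vehicle replicate 1 exceeded replicate 2 by 7.64-fold for Ins1 and 7.72-fold for Ins2, while BKC100 replicate 1 was at 0.918 of vehicle replicate 1 for Ins1. Reads of these similar paralogs may be shared between them by the authors' counting, so the split between the genes is uncertain.

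Iapp, which encodes amylin, a peptide co-secreted with insulin, was at 7.70 and 0.758 FPKM in vehicle and at 7.07 and 3.30 in BKC100. The convertase genes had the same order of libraries. Pcsk2, whose product acts in proglucagon and proinsulin processing, was at 2.09 and 0.284 FPKM in vehicle and at 1.41 and 1.13 in BKC100. Pcsk1, whose product starts proinsulin cleavage, was at 0.723 and 0.0757 in vehicle and at 0.523 and 0.399 in BKC100. For all 5 of these genes vehicle replicate 1 was highest, then BKC100 replicate 1, then BKC100 replicate 2, and vehicle replicate 2 was lowest.

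**Figure D1:**
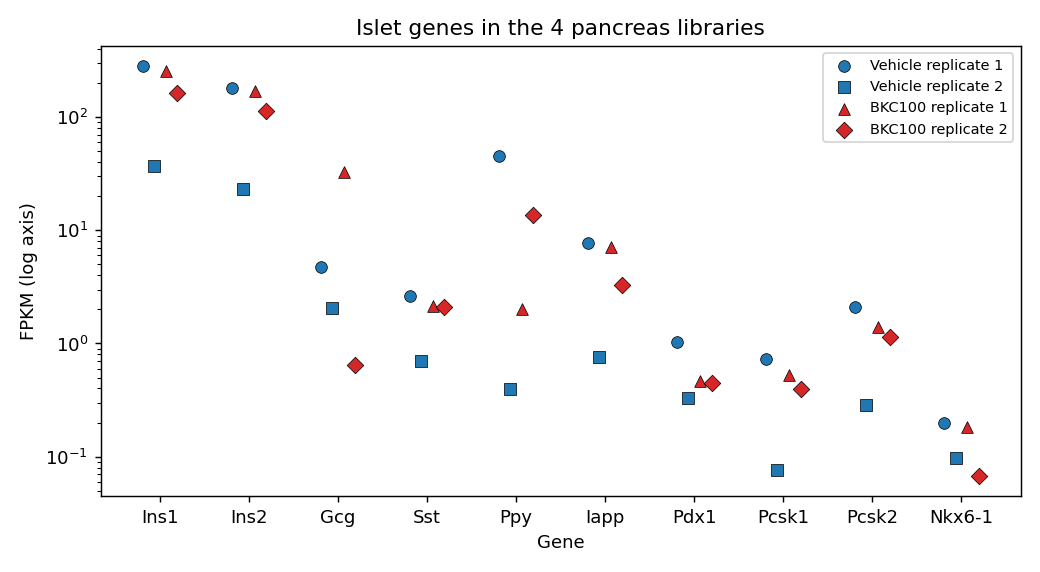
FPKM (log axis) of the 10 islet genes in each pancreas library, 1 point per library. Vehicle replicate 2 is lowest for 8 of the 10 genes, and the BKC100 points of Ins1, at 259 and 164 FPKM, lie between the vehicle points at 282 and 36.9.

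Sst, which encodes somatostatin, an inhibitor of insulin and glucagon release, was at 2.63 and 0.694 FPKM in vehicle and at 2.16 and 2.102 in BKC100. Gcg, the proglucagon gene, followed another order, with 4.72 and 2.04 FPKM in vehicle and 32.8 and 0.641 in BKC100. Its highest and lowest libraries were both BKC100, 51.2-fold apart. Ppy, which encodes pancreatic polypeptide, was at 45.05 and 0.397 FPKM in vehicle and at 2.01 and 13.7 in BKC100. The highest and lowest Ppy libraries were both vehicle, 113-fold apart, and among the BKC100 libraries Ppy was high where Gcg was low.

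The transcription factor genes were the least abundant but were above 0 in all 4 libraries. Pdx1, a homeodomain factor of pancreas development that adult beta cells use to drive insulin transcription, was at 1.03 and 0.331 FPKM in vehicle and at 0.464 and 0.451 in BKC100. Nkx6-1, a homeodomain factor of beta cell identity, was at 0.199 and 0.0961 in vehicle and at 0.183 and 0.0676 in BKC100. Pdx1 was highest in vehicle replicate 1 and lowest in vehicle replicate 2, while Nkx6-1 was lowest in BKC100 replicate 2, and the groups overlapped for both genes. The counting error behind the order of libraries is unknown for these genes and for Pcsk1, which were mostly under 1 FPKM.

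Ratios within a library separated the members into genes that moved with insulin and genes that did not. The Ins1 level was 1.56, 1.57, 1.53 and 1.45 times the Ins2 level in vehicle replicates 1 and 2 and BKC100 replicates 1 and 2, a range of 1.08-fold where Ins1 itself ranged 7.64-fold. Iapp stood at 2.73%, 2.06%, 2.73% and 2.01% of the Ins1 level in the same order. Pcsk2 stood at 0.742%, 0.770%, 0.545% and 0.689%, and Pcsk1 ranged from 0.202% to 0.257%. The beta cell products and convertases thus kept their proportions to insulin within 1.41-fold over the 4 libraries.

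Glucagon and pancreatic polypeptide did not. Gcg stood at 1.67% and 5.54% of the Ins1 level in vehicle and at 12.7% and 0.390% in BKC100, a 32.5-fold range. Ppy stood at 16.0% and 1.08% in vehicle and at 0.775% and 8.33% in BKC100, a 20.6-fold range. The Gcg range was 14.2-fold without BKC100 replicate 1 and 7.58-fold without BKC100 replicate 2, and the Ppy range was 10.8-fold without vehicle replicate 1. In all 4 libraries the order of Gcg relative to Ins1 ran nearly opposite to that of Ppy, and the Gcg to Ppy ratio was 0.105 and 5.15 in vehicle and 16.4 and 0.0468 in BKC100. Each treatment group therefore held 1 library with more Ppy than Gcg and 1 with more Gcg than Ppy. Pyy, which encodes the related peptide YY, was listed at 2.00 and 0 FPKM in vehicle and at 0.314 and 2.50 in BKC100, high in the libraries with high Ppy.

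Sst relative to Ins1 stayed between 0.834% and 1.88%, a 2.25-fold range. Pdx1 relative to Ins1 was highest in vehicle replicate 2, at 0.898% against 0.179% to 0.365% in the other 3, and Nkx6-1 was likewise at 0.260% there against 0.0411% to 0.0705%. The Pdx1 range of 5.01-fold was 2.04-fold without vehicle replicate 2 and 3.28-fold without BKC100 replicate 1. The Nkx6-1 range of 6.33-fold was 1.71-fold without vehicle replicate 2 and 3.70-fold without BKC100 replicate 2.

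**Figure D2:**
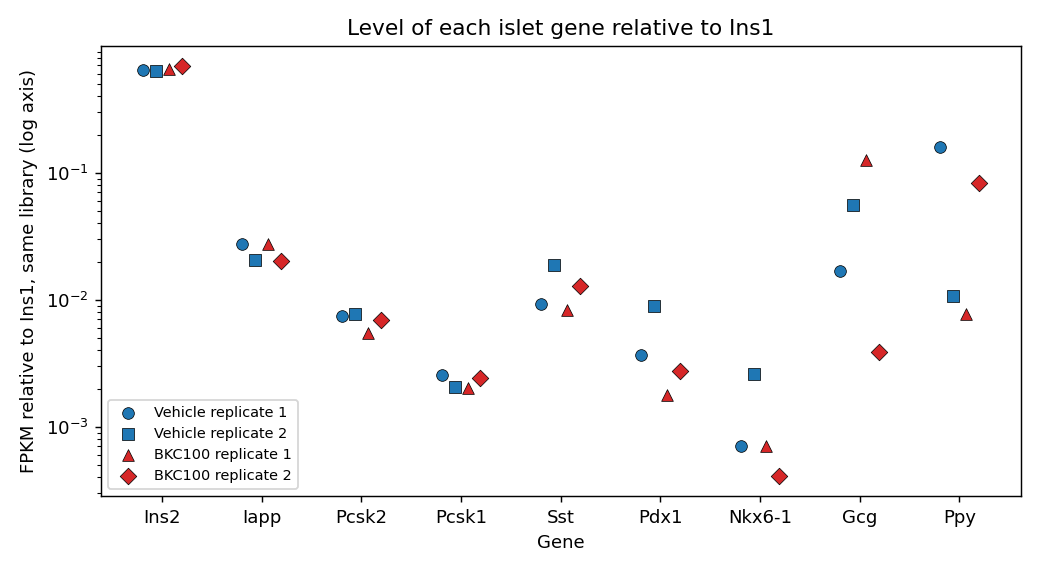
FPKM of 9 islet genes divided by the Ins1 FPKM of the same library (log axis), 1 point per library. Ins2, Iapp, Pcsk2 and Pcsk1 form tight groups of points, whereas Gcg ranges 32.5-fold and Ppy 20.6-fold.

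The comparison the design implies, BKC100 against vehicle pancreas, did not call any member. Limma, fitted to log2(FPKM + 1) of the 5610 genes that averaged 1 FPKM or more in pancreas, called 0.392% of genes at a Benjamini-Hochberg adjusted p under 0.05. Of the 10 members 7 passed the level filter, and 0 were called, with 0 at an unadjusted p under 0.05 against 124 of the 5610 genes. Groups did not overlap for 0 of the 7, against 16.1% of all genes tested. In exact permutation tests of single values, 2 against 2 libraries cannot give a two-sided p below 0.333.

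Ins1 averaged 212 ± 66.9 FPKM in BKC100 and 160 ± 173 in vehicle (SD, n = 2 each), a log2 difference of 1.00 with an SE of 1.48 (limma adjusted p = 0.9998, the same for each member tested). The log2 difference of Ins2 was 1.06 (SE 1.46), that of Iapp 0.59 (SE 1.06), that of Sst 0.34 (SE 0.29) and that of Pcsk2 0.19 (SE 0.27). Gcg averaged 16.7 ± 22.8 against 3.38 ± 1.89 FPKM, a log2 difference of 0.84 (SE 2.23). Ppy averaged 7.85 ± 8.26 against 22.7 ± 31.6 FPKM, a log2 difference of -0.27 (SE 2.77). The SE exceeded the difference for Ins1, Ins2, Iapp, Gcg, Ppy and Pcsk2, and the direction of Ppy turned with a pseudocount of 0.1, to 0.19. With all genes above 0 tested, Pdx1, Pcsk1 and Nkx6-1 had log2 differences of -0.17, 0.10 and -0.03, and none was called. In bulk tissue fewer islet cells and less hormone RNA per cell cannot be told apart.

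The direction depended on which vehicle library was kept for 6 of the 7 members tested, Gcg being the exception. Without vehicle replicate 2 the log2 differences were -0.45 for Ins1, -0.38 for Ins2, -0.56 for Iapp, -0.22 for Sst and -0.45 for Pcsk2. Without vehicle replicate 1 the differences of Ins1 and Ins2 were 2.45 (limma adjusted p = 0.0298) and 2.51 (limma adjusted p = 0.0199), and both passed with the lone vehicle library assumed to vary like the BKC100 pair. Ppy moved to 2.25 when vehicle replicate 1 was left out and to -2.79 when vehicle replicate 2 was, and it was 0.87 in the absence of BKC100 replicate 1. Gcg was at 1.29 and 0.38 without vehicle replicates 1 and 2, and turned to -1.35 without BKC100 replicate 1. Pdx1, Pcsk1 and Nkx6-1, below the level filter, were not refitted with a library left out.

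Relative to the mean log2(FPKM + 1) of 18 endocrine granule genes, the log2 level of Ins1 was 7.11 and 4.68 in vehicle and 7.09 and 6.59 in BKC100. The difference of 0.95 was within the SD of 1.24 between libraries of a group. Pdx1 went the other way on this scale, at -0.02 and -0.15 in vehicle and -0.39 and -0.24 in BKC100, without overlap. Its difference of -0.23 exceeded the within-group SD of 0.10, and it was -0.56 with a pseudocount of 0.1. For the other 8 members the difference was within the within-group SD, and Pdx1 was the only member whose groups did not overlap. The FPKM groups of Pdx1 overlapped, and most of its values were under 1 FPKM. How often other genes separate on this scale was not measured. With so few libraries an exact two-sided permutation p cannot fall below 0.333. Whether the Pdx1 difference goes beyond the spread between libraries was therefore not tested. Since most of those granule genes were near 1 FPKM or below, this scale compresses their own differences.

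Most granule genes and genes of beta cell glucose sensing were also lower in the same vehicle library. The members and gene lists were chosen with earlier results of these data known, so the counts only describe the libraries. All 10 members were higher in vehicle replicate 1 than in replicate 2, by a median of 7.50-fold. Of 18 granule genes 17 were higher, with a median of 3.23-fold. Of all 21622 genes above 0 in any pancreas library 79.1% were higher. Of 15 genes of beta cell glucose sensing and insulin release 14 were higher, with a median of 5.01-fold when genes at 0 in replicate 2 are ranked as largest. Ranked in the same way, 13 islet transcription factor genes other than the members had a median of 3.64-fold and 11 other islet peptides and non-beta markers one of 2.34-fold. Of 16 such transcription factor genes above 0 in any pancreas library 12 (75%) were higher, a share near that of all genes. The same held for 11 (84.6%) of 13 other islet peptides and non-beta markers. The median over all 20394 genes above 0 in either vehicle library was 1.61-fold. Among the transcription factor genes 4 were above 0 in replicate 1 and at 0 in replicate 2, and without such genes the median was 1.71-fold over 9.

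The gap between the vehicle libraries was not limited to endocrine genes. With the same ranking the median was 1.30-fold for 8 adipocyte genes, 1.46-fold for 26 acinar genes and 1.72-fold for 12 duct genes, against 1.61-fold over all genes. It was 1.86-fold for 12 stroma and endothelium genes, 2.32-fold for 9 immune genes and 6.94-fold for 6 nerve and Schwann genes. The nerve and Schwann list was near the floor, with a summed level of 0.697 and 0.259 FPKM in vehicle. Without 2 of its genes at 0 in replicate 2 its median was 3.79-fold over 4. The duct keratin gene Krt19 was at 5.27 and 0.364 FPKM in vehicle and at 1.14 and 1.10 in BKC100. Ccl21, a chemokine gene of lymphatic tissue, was at 4.47 and 0.119 in vehicle and at 1.02 and 0.406 in BKC100. These genes of other cells thus differed between the vehicle libraries by 14.5-fold and 37.5-fold, more than Ins1, and their part in the islet values was not tested.

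Vehicle replicate 2 was the lowest library for 8 of 10 members and for 14 of 18 granule genes. The share was 39% of the 21622 genes above 0 in any library, which ties at 0 reduce. It was lowest for 10 of 15 glucose sensing and insulin release genes and 8 of 13 other islet peptides and non-beta markers. That library was lowest for 7 of 16 islet transcription factor genes (43.8%), near the share of all genes. Among genes that passed the level filter it was lowest for 60.2% of 5610, for 6 of 7 members and for 4 of 6 granule genes, the last a share near that of all genes. It was also lowest for 24 of 26 acinar genes. Scg2, which encodes secretogranin 2, was at 2.53 and 0.173 FPKM in vehicle and at 2.06 and 1.43 in BKC100. Slc2a2, which encodes the beta cell glucose transporter GLUT2, was at 1.51 and 0.149 in vehicle and at 0.972 and 0.808 in BKC100. Slc30a8, which encodes the zinc transporter of insulin granules, was at 1.24 and 0.0924 in vehicle and at 1.07 and 0.458 in BKC100. Slc2a2, Slc30a8, Krt19 and Pyy were chosen after their values were seen.

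**Figure D3:**
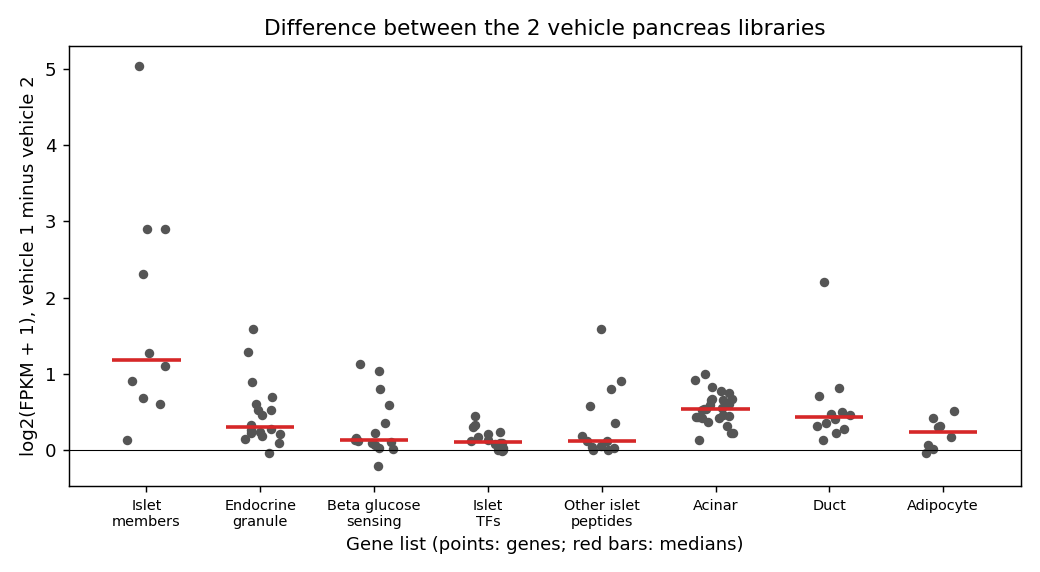
Difference in log2(FPKM + 1) between vehicle pancreas replicates 1 and 2, with 1 point per gene above 0 in any pancreas library and red bars at list medians. The islet members have a median of 1.18, the acinar genes of 0.54, the granule genes of 0.30 and the glucose sensing genes of 0.12. This scale compresses differences of low genes, so list medians do not rank as fold differences do. The median folds were 1.46 for acinar, 3.23 for granule and 5.01 for glucose sensing genes.

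None of the genes tested from the other endocrine lists was called at BKC100. In the granule list 6 genes were tested and 0 called, with a median log2 change of 0.03 against -0.07 over all genes tested. The most abundant were Ptprn2, a granule membrane phosphatase-like protein, with a log2 difference of -0.19 (SE 0.36), and Pam, the peptide-amidating enzyme, with -0.39 (SE 0.34) and no overlap of the groups. Ero1b, an oxidase for disulfide bonds of secretory proteins, was the 1 gene tested of the glucose sensing and insulin release list (log2 difference -0.38, SE 0.37). Both transcription factor genes tested, Hnf4a and Foxa2, had log2 differences of -0.45 and -0.17, and the Hnf4a groups did not overlap. Among other islet peptides and non-beta markers 3 genes were tested and 0 called. The amino acid transporter gene Slc38a5 and the somatostatin receptor gene Sstr2 had log2 differences of -0.22 and -0.44, without overlap for Sstr2. Groups did not overlap for 16.1% of all genes tested. Vehicle replicate 1 exceeded replicate 2 by 1.24-fold for Pam to 1.91-fold for Slc38a5 among the genes named here. The median was 1.46-fold for acinar genes and 7.50-fold for members. Scg2, Cpe and Scg5, also tested, differed by 14.7-, 6.36- and 3.66-fold, and Vamp2 by 1.12-fold. Which cells held the RNA of these genes was not tested.

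Markers of other pancreatic cells were measured beside these. The 26 acinar genes, all tested, had a median log2 change of 0.00 with 0 called, and their summed level was 249500 and 173900 FPKM in vehicle and 210600 and 202900 in BKC100. Amy2a3, a pancreatic amylase gene, and Ctrb1, the chymotrypsinogen gene, had log2 differences of -0.30 and 0.13. Adipoq, the adipocyte hormone adiponectin gene, fell from 2.74 ± 0.753 to 0.626 ± 0.197 FPKM (log2 change -1.19, SE 0.27, limma adjusted p = 0.00671, n = 2 per group). It was 1 of 3 adipocyte genes tested, all 3 without overlap of the groups, against 16.1% of all genes tested. The summed level of the 8 genes on the adipocyte list was 35.0 and 25.1 FPKM in vehicle and 14.3 and 12.2 in BKC100. Without the level filter 0 genes were called in pancreas, and 2 were under median-ratio scaling and 2 under quantile normalization. Of duct genes 6 were tested, of immune genes 3, of stroma and endothelium genes 7, of the adrenal medulla list 1 and of ER and islet stress genes 9, and 0 of each were called. No nerve, adrenal cortex or heart muscle gene passed the filter in pancreas, and 7 or 8 of 8 adrenal cortex genes were listed at 0 in each library. The part of these other cells in the islet values was not tested.

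Genes nearest to the insulin pattern over the 4 pancreas libraries were ranked by Euclidean distance of centred log2(FPKM + 1) from the mean of Ins1, Ins2 and Iapp. The nearest 8 non-members among the genes tested were Emb, Scg2, Resp18, Sqor, Arg2, Cpe, Rack1 and Eci1, at distances from 0.808 to 1.23 on the log2 scale. Scg2, Resp18 and Cpe, the carboxypeptidase E gene, belong to endocrine secretory granules. Resp18 was at 2.76 and 0.37 FPKM in vehicle and at 2.34 and 1.47 in BKC100, and Cpe at 2.34 and 0.37 in vehicle and at 1.99 and 1.35 in BKC100. Arg2 was also 1 of the 22 genes called at BKC100 (log2 change 1.27, SE 0.27, limma adjusted p = 0.00257). By this distance nothing tested lay close to Gcg, whose nearest 5 genes, Jun, Errfi1, Btg2, Syncrip-ps2 and Cdkn1a, were at distances from 2.19 to 2.27. Centred Gcg values ran from -1.76 to 2.60, against -1.79 to 0.91 for the insulin mean. The values were not scaled, so a gene with the Gcg order but a smaller range would also lie far from it.

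Outside the pancreas most members were listed at 0. In the 6 adrenal libraries 7 of 10 were at 0 throughout, namely Ins1, Iapp, Gcg, Sst, Ppy, Pdx1 and Nkx6-1, and 3 passed the filter. In the 5 hearts 5 of 10 were at 0 throughout, and Ins2 alone passed. The organ tables may have been normalized separately, so levels are set side by side without a test.

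Ins2 was the exception in both organs, in libraries where Ins1 and Iapp were listed at 0. Adrenal Ins2 was at 18.4 and 15.2 FPKM in vehicle, 14.1 and 19.7 in BKC50 and 25.6 and 24.4 in BKC100. Heart Ins2 was at 10.9 and 15.3 FPKM in vehicle, 10.3 and 10.7 in BKC50 and 12.3 in the lone BKC100 library. The Ins2 level of vehicle pancreas replicate 2, 23.5 FPKM, lay within the adrenal range, although that library also held 36.9 FPKM of Ins1. RefSeq on GRCr8 lists 36 transcripts under Ins2, of which 34 are non-coding, against 1 for Ins1, and the deposited value does not separate them. Which transcripts the adrenal and heart values hold was not tested.

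Igf2 and Th, the genes on either side of Ins2 in that list, differed from it in their levels by organ. Igf2, the insulin-like growth factor 2 gene, was at 0.0617 to 0.300 FPKM in adrenal gland and at 2.68 to 7.03 in 4 hearts, and at 57.6 in the BKC100 heart that had 12.3 FPKM of Ins2. Th, the tyrosine hydroxylase gene of the catecholamine pathway, was at 24.9 to 58.9 FPKM in adrenal gland and at 0 in all 5 hearts. Whether the Ins2 values hold RNA of either neighbour was not tested.

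**Figure D4:**
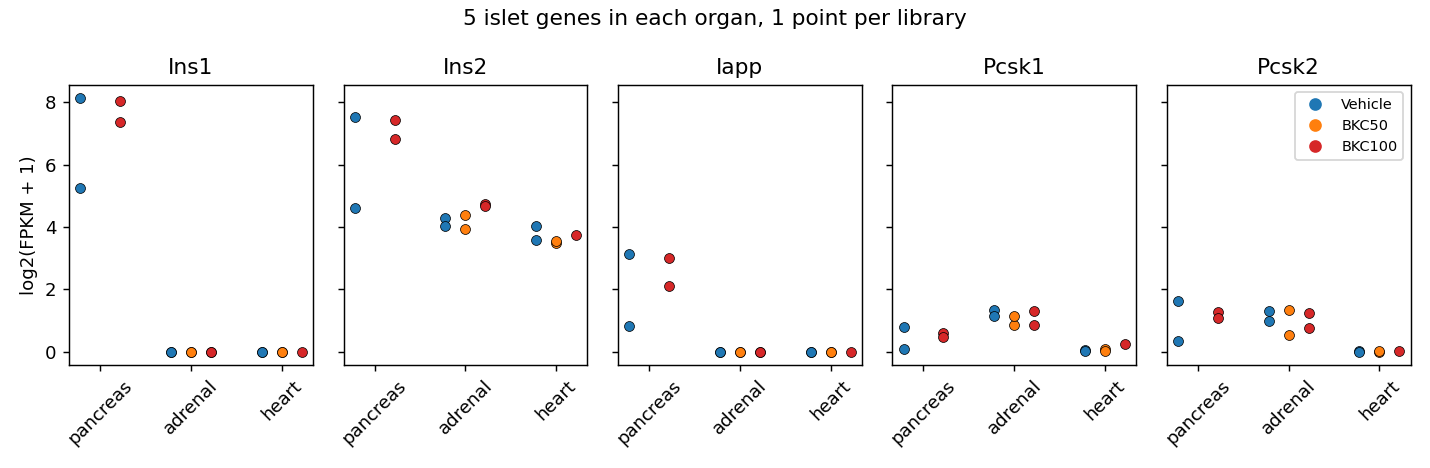
log2(FPKM + 1) of 5 islet genes by organ and treatment, 1 point per library, without the copied heart column. Ins1 and Iapp are at 0 in all adrenal and heart libraries, while Ins2 lies between 14.1 and 25.6 FPKM in adrenal gland and between 10.3 and 15.3 FPKM in heart.

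Adrenal Ins2 averaged 25.0 ± 0.875 FPKM in BKC100 against 16.8 ± 2.26 in vehicle, and the BKC100 libraries lay above both vehicle libraries. The log2 difference was 0.55 (SE 0.24, limma adjusted p = 0.138, unadjusted p = 0.0361), so it did not pass. It was 0.86 after median-ratio scaling (limma adjusted p = 0.0614) and 0.82 after quantile normalization (limma adjusted p = 0.0541), and over all alternatives the adjusted p ranged from 0.0541 to 0.427. In that comparison 0 of 3 members tested were called, against 9.78% of all 12578 genes. An unadjusted p under 0.05 was reached by 1 of the 3 and by 3776 of the 12578 genes. Groups did not overlap for 1 of the 3, Ins2, against 61% of all genes tested. Of the latter, 1698 genes were higher at BKC100, as Ins2 was, and 5980 were lower. Over all genes tested the log2 change had a median of -0.28 there. BKC100 adrenals carried another style of library name than vehicle and BKC50 adrenals, so dose and naming style cannot be told apart. The labels do not say what the style stands for. At BKC50, 0.0318% of genes and 0 of the 3 members were called, and Ins2 had a log2 difference of 0.00 (SE 0.24). An unadjusted p under 0.05 was reached there by 0 of the 3 and by 1424 of the 12578 genes. Groups did not overlap there for 0 of the 3, against 46.1% of all genes tested.

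The convertase genes were the other members present in adrenal gland, whose medulla processes peptides in chromaffin granules. Pcsk1 was at 1.55 and 1.19 FPKM in vehicle, 0.797 and 1.24 in BKC50 and 0.816 and 1.46 in BKC100, and the groups overlapped. Its log2 difference was -0.24 (SE 0.30) at BKC50 and -0.16 (SE 0.30) at BKC100. Pcsk2 was at 1.497 and 0.992 in vehicle, 0.456 and 1.51 in BKC50 and 0.685 and 1.36 in BKC100, with log2 differences of -0.22 (SE 0.34) and -0.16 (SE 0.34). Both BKC100 directions rested on the scaling, since the differences were 0.01 and 0.00 after median-ratio scaling. Chga, the chromogranin A gene of such granules, was at 119 to 223 FPKM in these glands, and of 15 granule genes tested 0 were called at either dose.

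The lowest adrenal Pcsk1 level, 0.797 FPKM, was above the highest in pancreas, 0.723, while the Pcsk2 levels of both organs overlapped. In heart, Pcsk1 ranged from 0.0172 to 0.0734 FPKM in 4 libraries and was 0.193 in the BKC100 library with atrial light chain RNA. Heart Pcsk2 did not exceed 0.0287 FPKM. The heart comparison of BKC50 with vehicle called 0% of 12099 genes by limma, with 45 at an unadjusted p under 0.05, and Ins2 had a log2 difference of -0.28 (SE 0.22, limma adjusted p = 1, unadjusted p = 0.271). Heart Ins2 was lower in both BKC50 libraries than in either vehicle library, so the groups did not overlap for the 1 member tested, against 13.6% of all genes tested. Vehicle and BKC50 hearts each mixed libraries of different naming styles, which this fit did not include. With the replicate number as a block, which follows that split there, 588 genes had an unadjusted limma p under 0.05. The SE of Ins2 was then 0.12, and 0 genes were called.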

How the data were processed

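The deposited tables gave 1 value per gene symbol and library, which were read as FPKM made by the authors. The tables do not name the unit, and it was inferred from values that were not whole and had unequal sums. HISAT2 2.1.0, StringTie 2.1.3b and edgeR 3.40.2 are named without roles per the submitters' processing notes, and the build is not given in the sources used here. Low values shared a common step between libraries in at most 39 of 2172 genes, so read depth could not be recovered. All 45777 symbols matched RefSeq on GRCr8. Of 16 sample columns 15 were used.

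Each organ was fitted with limma 3.58.1 (R 4.3.3, mean-variance trend, robust shrinkage) on log2(FPKM + 1), 1 mean per group, for genes that averaged 1 FPKM or more in that organ. Fold changes on this scale understate changes of low genes. Jsonlite 2.0.0 read the sample descriptions, and Biopython 1.88 aligned promoters. The fit was also run on simulated normal values with equal spread in all groups. That run cannot speak to an outlying library or to a shift of a whole library. The labels do not state that libraries of a group are separate animals, so p-values measure the spread between libraries, which may be technical.

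Members and gene lists were chosen with earlier results of these data known. Named genes were the members, up to 4 called genes per list by p or else the 2 most abundant, and the nearest genes by distance. Alternatives were a pseudocount of 0.1, no filter, the replicate number as a block, median-ratio scaling, quantile normalization, no robust shrinkage, equal sums without acinar genes, and each library left out. Read-count tests were not run.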

Additional observations from a re-analysis of the deposited data

How the results depend on the processing

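Over 160 alternative values of the members' log2 differences, 139 kept direction and side of the threshold, 19 changed sign and 2 passed newly (Ins1 and Ins2 without vehicle pancreas replicate 1). Leaving out 1 pancreas library moved Ins1 between -0.45 and 2.45, Ins2 between -0.38 and 2.51, Iapp between -0.56 and 1.74, Sst between -0.22 and 0.89, Pcsk2 between -0.45 and 0.82, Gcg between -1.35 and 3.02 and Ppy between -2.79 and 2.25. Ppy was 0.19 with a pseudocount of 0.1. In adrenal gland, leaving out 1 library moved Ins2 at BKC50 between -0.23 and 0.22, Pcsk2 at BKC50 between -0.62 and 0.17, and at BKC100 Pcsk1 between -0.38 and 0.06 and Pcsk2 between -0.40 and 0.08. Ins2 at BKC50 was 0.11 under median-ratio scaling and 0.11 under quantile normalization, and at BKC100 median-ratio scaling gave 0.01 for Pcsk1 and 0.00 for Pcsk2, and raised Ins2 from 0.55 to 0.86. Ranking genes at 0 in vehicle replicate 2 as largest in the list medians was chosen after seeing the data.

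The 22 genes called in pancreas became 0 without the filter, 2 under median-ratio scaling, 2 under quantile normalization, 54 with equal sums without acinar genes and 0 to 114 with 1 library left out (0 without either BKC100 library, 17 without vehicle replicate 1, 114 without vehicle replicate 2). The 4 called in adrenal gland at BKC50 became 0 with a pseudocount of 0.1, without the filter, under either scaling and without robust shrinkage, and 1 to 180 with 1 library left out. The 1230 at BKC100 (226 up, 1004 down) became 0 without the filter, 321 under median-ratio scaling (207 up, 114 down), 397 under quantile normalization (232 up, 165 down) and 268 to 2309 with 1 library left out. In heart the count of 0 became 0 to 2 with 1 library left out. The cause of these shifts was not tested. With the replicate number as a block, 44 genes were called in pancreas, 0 at BKC50 and 526 at BKC100 in adrenal gland, and 0 in heart, and no member's call changed. Same-numbered pancreas libraries deviated together (r = 0.42 over 5610 genes), but the labels do not say that the numbers pair animals. Unknown depth limits every statement on Pdx1, Nkx6-1 and other genes under 1 FPKM.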
